A study of Mus musculus with 5 samples.

Results

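Interferon-stimulated genes were followed in epithelial cells sorted from the proximal airway of C57BL/6 mice, in duct cells against basal cells. The members were 45 listed genes, represented by every probe set that the array annotation assigned to a single one of them. That gave 67 of the 45101 probe sets on the array, for 43 of the 45 genes and of 18193 genes measured in all; Isg15 and Ifi44 had no such probe set and were not analysed here. The duct group held 3 arrays of cells sorted by a surface antigen from tissue of the upper tracheal section, after pronase had taken off the surface epithelium. The basal group held 2 arrays of cells sorted by the same antigen together with ITGA6 from dispase-digested surface epithelium of the lower section. All 5 samples came from untreated mice of 8 to 12 weeks, of both sexes, and each was a separate pool of 10 to 15 mice, per the labels and the series' design text. Enzyme, tracheal section and gate changed together with the cell type, so their parts in any difference cannot be told apart.

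Interferons are secreted proteins of antiviral defence. Type I and type III interferons act through JAK kinases on a complex of STAT proteins with IRF9, which binds a promoter element called the interferon-stimulated response element; type II interferon acts mainly through STAT dimers at gamma-activated sites. The genes they switch on include sensors of foreign nucleic acid, transcription factors that feed the response, proteins that cut and load peptides for antigen presentation, and effectors that block viral entry, translation or replication. Many of them are also held at a low tonic level in unstimulated epithelia.

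Values are the deposited intensities, in arbitrary units on a linear scale, after the authors scaled each array to the same trimmed mean of 500.003. A fold change here is the mean log2(intensity + 16) of the duct arrays less that of the basal arrays. limma tested it on 12554 genes with 1 probe set each, and a gene passed where the Benjamini-Hochberg adjusted p was under 0.05. The median intensity was 92.3 on duct replicate 1 and 149 on duct replicates 2 and 3, against 153 and 147 on the basal arrays. Background was gauged by 27 control probe sets that target Bacillus RNA; the brightest of them measured 39.5 to 61.9 on the duct arrays and 59.7 and 86.5 on the basal arrays. The basal keratin gene Krt5 measured 16831 to 19821 in duct and 12334 and 11617 in basal cells. Trp63, the p63 factor of basal progenitors, measured 6944 to 7243 in duct and 9890.5 and 8038 in basal cells, so both markers of basal cells were bright in both groups. Sox9, a transcription factor of submucosal glands, measured 1024 to 1432 in duct cells and 54.5 and 227 in basal cells.

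Interferon-stimulated genes were mostly dimmer in duct cells. Of the 38 members bright enough to be tested, 36 had a negative fold change and 2 a positive one, with a median of -0.84; over all 12554 tested genes, 58.5% were negative and the median was -0.13. Xaf1, a partner of the apoptosis inhibitor XIAP, was the 1 member that fell past the test, against 0.119% of all genes called lower; 0 members were called higher, against 0.82% of all genes. At an unadjusted p under 0.05 limma placed 19 members lower and 0 higher, against 10.6% and 7.85% of all genes. In 23 members every duct array lay below both basal arrays, as 22.8% of all genes did, and in 0 members did every duct array lie above both, as 16.6% of all genes did. The filter on low values used the mean of all 5 arrays; with no filter the 43 measured genes had 39 negative and 4 positive fold changes and a median of -0.79, beside -0.12 for all 18193 genes.

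**Figure D1:**
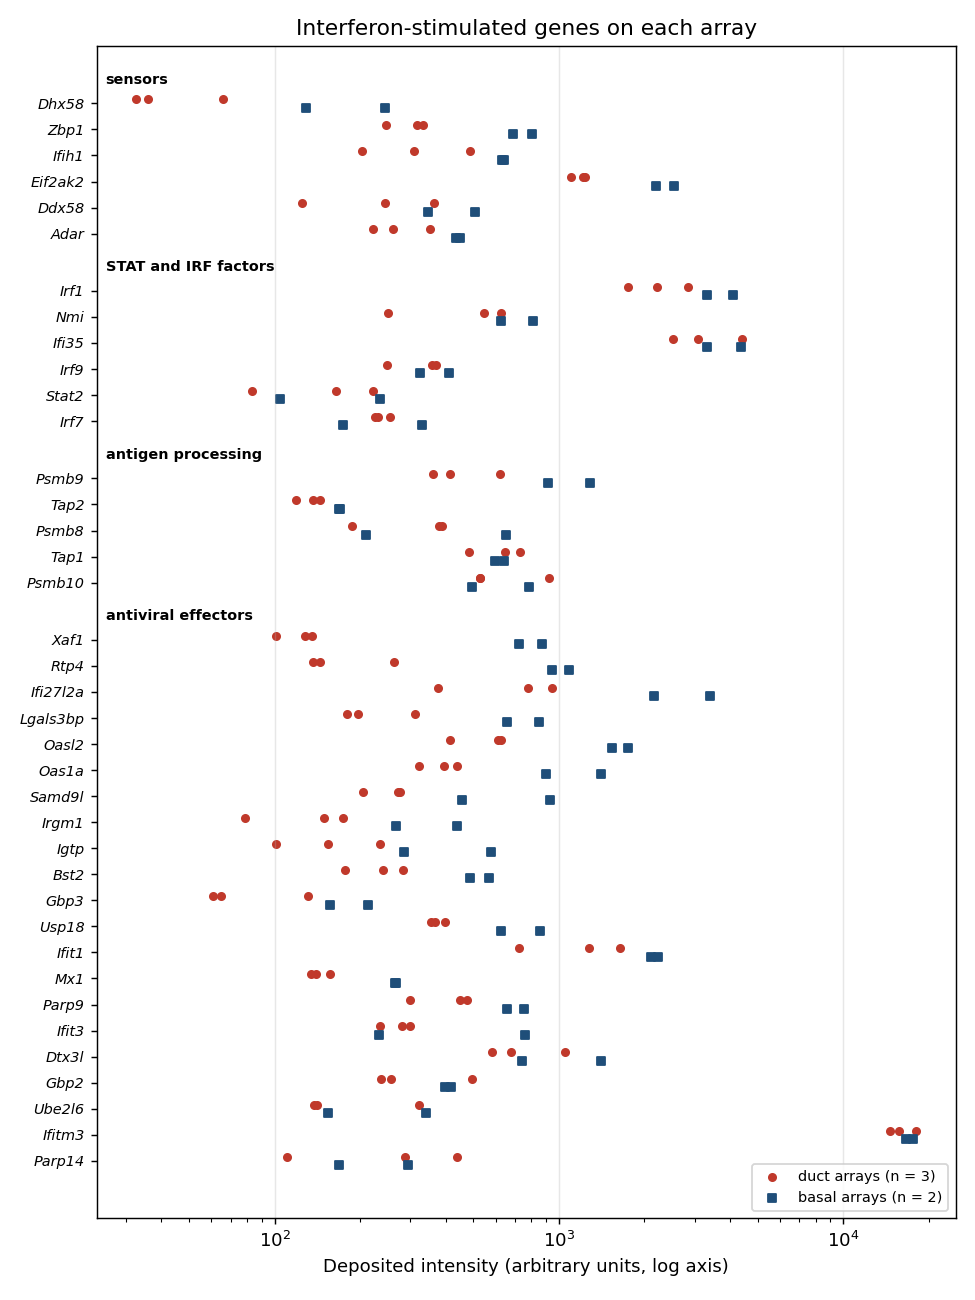
Deposited intensity (arbitrary units, log axis) of the 38 tested interferon-stimulated genes on each array, by role, with the 3 duct arrays as circles and the 2 basal arrays as squares. In 23 genes, Xaf1 and Rtp4 among them, the duct points all lie left of the basal points; Ifitm3 is the brightest member and its groups overlap.

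The median over members was close between the arrays of a group, while single genes differed up to 3.25-fold between the basal arrays (Ifit3, among the 38 tested). Each tested member's log2 value was centred on the midpoint of its group means, and the median over members was taken on each array and set against the same median over all tested genes. It was -0.35, -0.46 and -0.44 on duct replicates 1, 2 and 3, and 0.38 and 0.35 on basal replicates 1 and 2. The sign of each side follows from the centring and the 36 negative fold changes, so these values show only how alike the arrays of a group were. Duct replicate 1 had the lowest duct value in 20 of the 38 members, and the same share over all genes was not counted. That array was dimmer over all tested genes too. Their median after the same centring was -0.099 on it, against 0.018 and 0.0029 on duct replicates 2 and 3. The basal arrays took turns: replicate 1 was the higher one in 19 members and replicate 2 in the other 19. In bulk samples such as these, fewer cells that express a gene and less RNA of it per cell cannot be told apart.

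Sensors of viral nucleic acid had 6 of 6 fold changes negative, with a median of -0.98, against 58.5% and -0.13 over all tested genes. Of the 6, 0 passed the test over all genes and 4 had an unadjusted p under 0.05, against 10.6% of all genes lower at that p. Dhx58 passed the filter on low values (97.2) only through its basal arrays, with means of 44.9 in duct and 187 in basal cells. That favoured a negative sign, so its place in these counts is no added support. Dhx58, the RIG-I-like protein LGP2 that tunes the other sensors, measured 36.0, 66.1 and 32.6 on the duct arrays, against 245 and 129 on the basal arrays (log2 fold change -1.72, SE 0.39, adjusted p = 0.114). Of its duct arrays only replicate 2 was above its brightest Bacillus probe set. The probe set used has a shared-sequence suffix in its name. Other Dhx58 probe sets, without that suffix and below the filter on low values, were at -1.50 without overlap and at 0.24 with overlap. Zbp1, a sensor of Z-form nucleic acid that can trigger necroptosis, measured 246, 334 and 317 on the duct arrays and 803 and 689.7 on the basal arrays (-1.28, SE 0.26, adjusted p = 0.0933). Its duct and basal arrays stood well apart, and its other probe set had a fold change of -1.83. Ifih1, the sensor MDA5 of long double-stranded RNA, measured 488, 203 and 309.7 in duct cells against 633 and 642 in basal cells (-0.99, SE 0.39, adjusted p = 0.271). The basal arrays nearly coincided while the duct arrays spread.

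Eif2ak2, the kinase PKR that halts translation on double-stranded RNA, was the brightest sensor. It measured 1214, 1240.3 and 1103 on the duct arrays and 2197 and 2533 on the basal arrays, a fold change of -0.98 (SE 0.23, adjusted p = 0.120). All 3 of its probe sets were negative, from -1.57 to -0.74, and on each the duct arrays lay below both basal arrays. Ddx58, the sensor RIG-I, was at -0.85 with overlapping arrays (adjusted p = 0.395). Another tested probe set of Ddx58 was at -0.73, and a dim one below the filter was at 0.83, both with overlap. Adar, the RNA-editing enzyme that marks self double-stranded RNA, was at -0.66 without overlap (adjusted p = 0.293).

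The role of STAT and IRF factors, which also held Nmi and Ifi35, stood nearer to the bulk of the array. All 6 had negative fold changes on the scale used, with a median of -0.20, and 0 passed the test or an unadjusted p of 0.05. Over all tested genes 58.5% were negative and 10.6% were lower at an unadjusted p under 0.05. The signs of Irf9, Irf7 and Stat2 turned positive with quantile normalization and with median centring. Irf1, an interferon-gamma-induced activator of antigen presentation genes, measured 1746, 2216 and 2835 on the duct arrays and 4099 and 3310.2 on the basal arrays (-0.72, SE 0.30, adjusted p = 0.282). Among the probe sets that stood for the genes of this role, only that of Irf1 had groups that did not overlap. Another tested probe set of Ifi35 was at -1.11 without overlap, so the role's median depends on the choice of probe set. Nmi, which binds STAT proteins, measured 543, 626 and 251 in duct against 626 and 812 in basal cells (-0.67, adjusted p = 0.472). Without duct replicate 3, its lowest array, the fold change was -0.28.

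Ifi35, the partner of Nmi, was the brightest gene of this role and showed no separation. It measured 4418, 2514 and 3090.4 on the duct arrays and 3308 and 4374 on the basal arrays (-0.23, SE 0.33, adjusted p = 0.755), but the probe set of Ifi35 without a shared-sequence suffix in its name was at -1.11 with no overlap. Irf9 and Stat2, parts of the main signal complex, were at -0.17 (SE 0.29) and -0.10 (SE 0.51), and Irf7, the amplifier of type I interferon, was at -0.02 (SE 0.32); the arrays of all 3 overlapped.

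Antigen processing genes split. Psmb9, a catalytic subunit of the immunoproteasome, measured 361, 621 and 413 on the duct arrays and 1288 and 917 on the basal arrays, a fold change of -1.24 (SE 0.33, adjusted p = 0.151). Its groups did not overlap. Tap1, the next gene on the chromosome and a chain of the peptide transporter, measured 484, 645 and 727 in duct cells and 597 and 642 in basal cells (-0.02, SE 0.27, adjusted p = 0.976), with both basal arrays inside the range of the duct arrays. Tap2, the other chain, was at -0.31 (119, 145 and 136 in duct, 170.2 and 168 in basal cells, adjusted p = 0.515).

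Psmb8, another immunoproteasome subunit next to Tap1 in the gene order, measured 389, 187 and 377 in duct cells against 210.2 and 651 in basal cells (-0.29, SE 0.57, adjusted p = 0.821), and it ranged from -1.07 without basal replicate 1 to 0.49 without basal replicate 2. Psmb10, the remaining immunoproteasome subunit, was at 0.03 (SE 0.37). Over this role 4 of 5 fold changes were negative, 0 passed the test over all genes and 1 had an unadjusted p under 0.05. Over all tested genes 58.5% were negative and 10.6% were lower at an unadjusted p under 0.05.

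**Figure D2:**
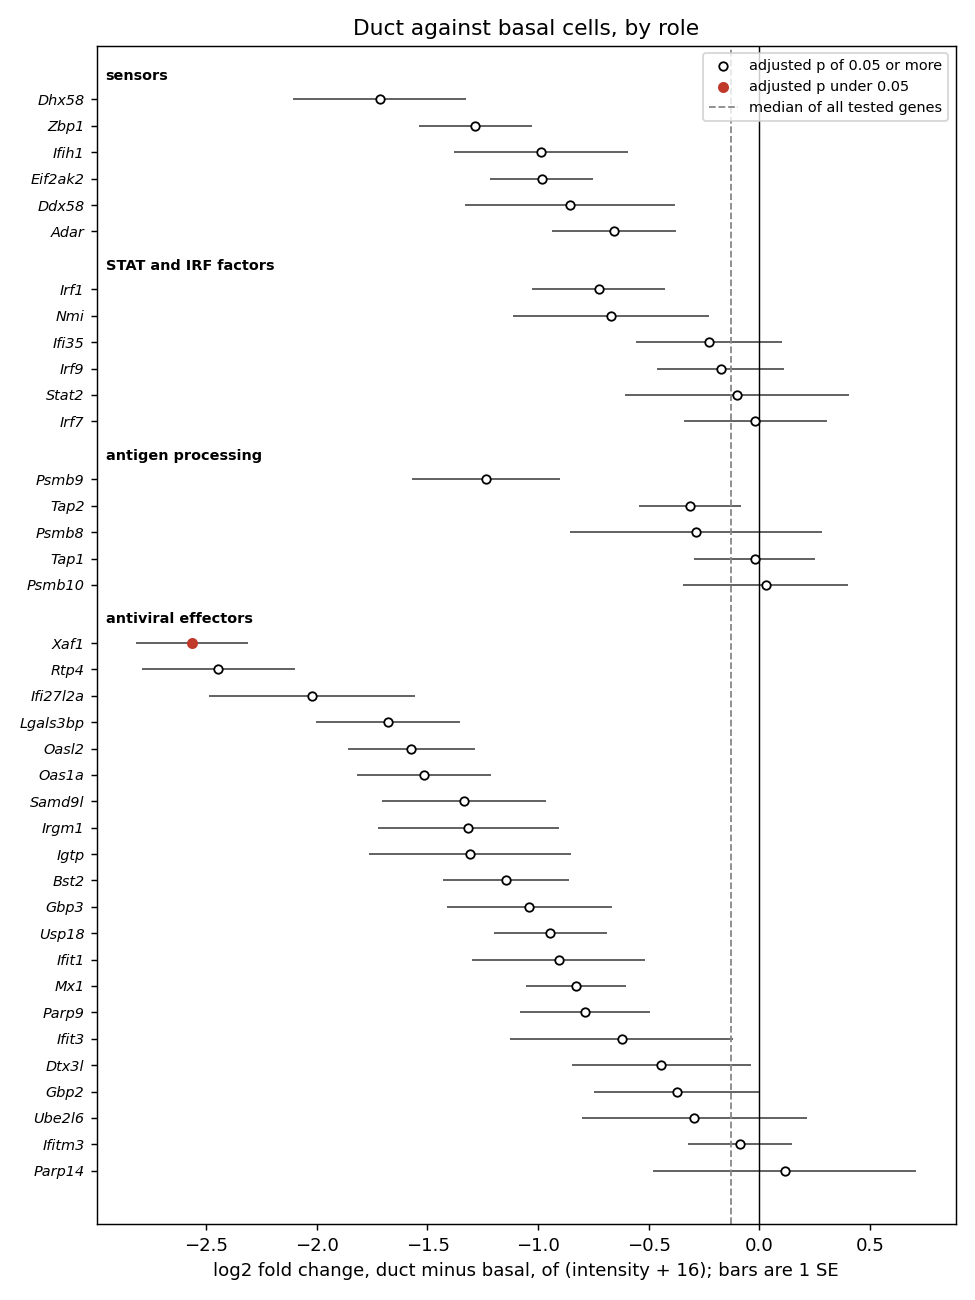
Log2 fold change of duct minus basal for each tested member, by role, with bars of 1 SE; the filled point passed an adjusted p of 0.05 and the dashed line is the median of all tested genes, -0.13. Sensors run from -1.72 to -0.66, STAT and IRF factors from -0.72 to -0.02, and antiviral effectors from -2.56 to 0.12.

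Antiviral effectors held the largest differences. Of 21 tested genes 20 were negative, with a median of -1.04, against 58.5% and -0.13 over all tested genes. Among these effectors 1 was called lower and 14 had an unadjusted p under 0.05, against 0.119% and 10.6% of all genes on the lower side. Xaf1 measured 128, 135 and 102 on the duct arrays, against 869 and 724 on the basal arrays. Every duct array was far below both basal arrays, at 122 ± 17.8 (SD, n = 3) in duct and 797 ± 102 (SD, n = 2) in basal cells, and the fold change was -2.56 (SE 0.25, adjusted p = 0.0235), or 5.92-fold lower in duct cells. The call needed all 5 arrays: its adjusted p ran from 0.0701 to 0.193 with 1 array left out, while the fold change stayed between -2.69 and -2.44. It was 0.0638 with no filter on low values and 0.200 with the mean of its probe sets, where the fold change was -1.13, and 0.328 with the replicate block. The other Xaf1 probe set was dim, at 28.2, 105 and 16.9 in duct and 25.4 and 33.6 in basal cells.

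Rtp4, a receptor chaperone with activity against flaviviruses, lay on the threshold. It measured 136, 262 and 144 on the duct arrays and 1089 and 947 on the basal arrays, so that the brightest duct array was well below the dimmer basal one. The fold change was -2.45 (SE 0.35, adjusted p = 0.0538), or 5.45-fold lower as measured. The adjusted p was 0.0488 when probe sets were chosen and filtered by the mean of log2 values, a setting chosen after seeing the data, and 0.00297 to 0.0444 under 5 other settings given in the closing section. It was 0.0701 with a pseudocount of 1, 0.0906 with the mean of probe sets, 0.110 with no filter, 0.334 with the replicate block and 0.0708 to 0.279 with 1 array left out. A separate probe set of Rtp4 gave 143, 261 and 127 in duct and 245 and 341 in basal cells, a fold change of -0.72 with overlapping arrays.

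Ifi27l2a, a small mitochondrial interferon-induced protein, measured 376, 949 and 779.6 on the duct arrays and 3396 and 2158 on the basal arrays (-2.02, SE 0.47, adjusted p = 0.118). It was among the brighter members in basal cells, and its groups did not overlap. Lgals3bp, a secreted galectin-binding glycoprotein, was at -1.68 (adjusted p = 0.0886), Samd9l, an inhibitor of translation, at -1.33 and Bst2, the tether that holds budding virions at the cell surface, at -1.14. Each of these 3 had duct arrays below both basal arrays. Ifitm3, which blocks fusion of incoming viruses, was the brightest member at 14611, 15666 and 18105 in duct cells and 17567 and 16591 in basal cells, with a fold change of -0.09 (SE 0.24, adjusted p = 0.870) that was 0.12 with median centring.

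In the family of IFIT, MX and OAS genes, 5 were bright enough to test and all 5 had negative fold changes, from -1.57 to -0.62. Oasl2, of the oligoadenylate synthetase family, measured 413, 624 and 611 in duct against 1533 and 1751 in basal cells (-1.57, SE 0.29, adjusted p = 0.0802). Oas1a, a synthetase of the messenger that activates RNase L, measured 321, 439 and 395 in duct against 1402 and 898 in basal cells (-1.52, SE 0.30, adjusted p = 0.0933). In both genes the duct arrays lay below both basal arrays. Ifit1, which binds viral RNA that lacks cap methylation, measured 1279, 1643 and 727 in duct cells and 2110.2 and 2239 in basal cells (-0.91, adjusted p = 0.297). The GTPase gene Mx1 was at -0.83 without overlap. Ifit3, at -0.62, measured 280.4, 234 and 299 in duct cells and 759 and 234 in basal cells, and was at 0.20 without basal replicate 1.

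Another 5 effectors were too dim for the test. Cmpk2, a mitochondrial nucleotide kinase, measured 69.9, 6.87 and 40.9 on the duct arrays and 184 and 169.8 on the basal arrays, without overlap; its other probe set was below the brightest Bacillus probe set on all 5 arrays. Rsad2, its neighbour on the chromosome and the gene of viperin, had its brightest probe set at 38.8, 261 and 17.5 in duct and 10.5 and 133 in basal cells, so that its groups overlapped, and its 3 probe sets were at 0.34, -0.19 and -1.51. Mx2 was below the brightest Bacillus probe set on all 5 arrays, and Oas2 on all but duct replicate 2. Ifit2 measured 41.7 to 104 in duct cells and 64.9 and 109 in basal cells.

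Of the ISG15 system, which attaches and removes a ubiquitin-like tag, Usp18, the protease that removes it, measured 399, 356 and 367 in duct against 857 and 627 in basal cells (-0.94, SE 0.25, adjusted p = 0.150). The duct arrays were tight and below both basal arrays. Ube2l6, the conjugating enzyme, measured 322, 138 and 141 in duct and 341 and 154 in basal cells (-0.29, SE 0.51, adjusted p = 0.793), with a spread inside each group larger than the difference between them.

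The interferon-induced GTPases, which act on pathogen vacuoles and membranes, had 4 of 4 negative fold changes, against 58.5% of all tested genes. Irgm1 measured 78.7, 149.6 and 175 on the duct arrays and 438 and 267 on the basal arrays (-1.32, SE 0.41, adjusted p = 0.190). Igtp, also known as Irgm3, measured 235, 101 and 154 in duct against 577 and 286 in basal cells (-1.31, SE 0.46, adjusted p = 0.222). Neither overlapped, and in both basal replicate 1 was the brighter basal array. Gbp3 measured 65.0, 60.7 and 131 in duct and 157 and 214 in basal cells (-1.04, SE 0.37, adjusted p = 0.234). Its duct mean of 85.5 was under the filter on low values (97.2), so it passed only through its basal arrays, which favoured a negative sign. Gbp2, close to Gbp3 on the chromosome, was at -0.37 with overlap, and its other tested probe set was at 0.21.

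Parp14, Dtx3l and Parp9 lie next to each other and encode an ADP-ribosyltransferase, a ubiquitin ligase and its binding partner. Parp9 measured 474, 451 and 299.6 on the duct arrays and 656 and 755 on the basal arrays (-0.79, SE 0.29, adjusted p = 0.242). Dtx3l measured 1053, 680.3 and 583 in duct and 744 and 1404 in basal cells (-0.44, SE 0.41, adjusted p = 0.601), and its other probe set was at -0.83 without overlap. Parp14 was the tested member with the highest fold change, at 111, 287 and 439 in duct and 168 and 295 in basal cells (0.12, SE 0.60, adjusted p = 0.938). That sign rested on 1 probe set: the other measured 229.5, 192 and 136 in duct against 399.6 and 327 in basal cells, at -0.93.

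**Figure D3:**
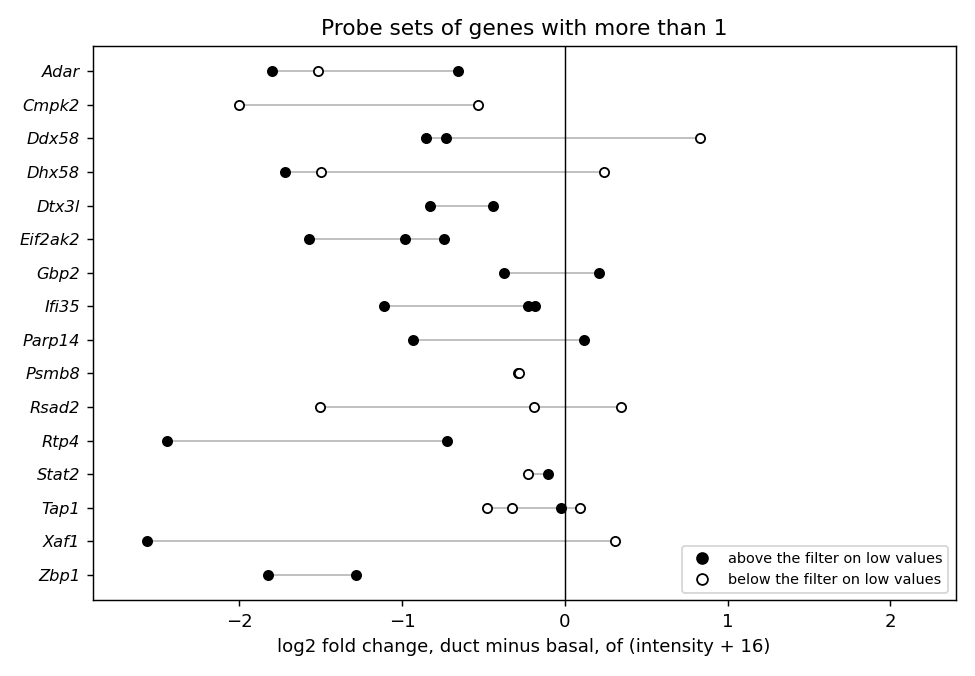
Log2 fold change of duct minus basal for every probe set of the 16 genes with more than 1, with filled points above the filter on low values and open points below it. Gbp2 and Parp14 have filled points on both sides of 0; those of Rtp4 lie at -2.45 and -0.72.

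The probe sets of 1 gene were set beside each other where several existed. All 67 were fitted with no filter on low values: 58 had a negative and 9 a positive fold change, with a median of -0.72, while 57.5% of all 45037 probe sets were negative with a median of -0.12. Among the 49 that passed the filter, 46 were negative, against 58.8% of all tested probe sets, with a median of -0.83, and in 30 every duct array lay below both basal arrays, as in 20.8% of all tested probe sets. With probe sets as the unit limma called 0 of the 49, against 0.0074% of all probe sets called lower and 0.196% called higher; that of Xaf1 had an adjusted p of 0.0526 and that of Rtp4 0.0953. Gbp2 and Parp14 had tested probe sets that differed in sign.

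**Figure D4:**
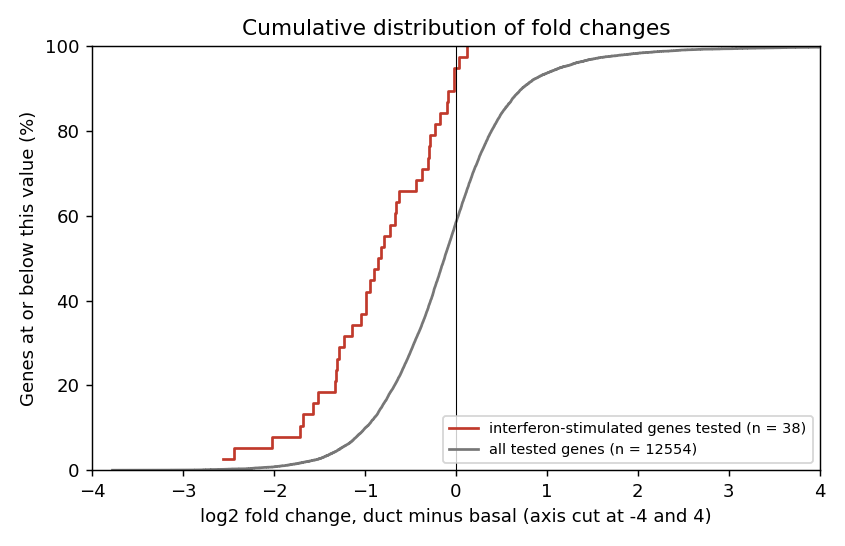
Cumulative share of genes at or below each log2 fold change of duct minus basal, for the 38 tested members and for all 12554 tested genes, with the axis ended at -4 and 4. The members' curve lies to the left, with 94.7% of members and 58.5% of all genes below 0.

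A promoter motif, the interferon-stimulated response element, was more frequent among members than among all genes, though most members with a promoter lacked it. Members were listed as genes that interferon switches on, in part through this element, so the higher share is not independent of that choice. It does not bear on duct against basal cells. RefSeq promoters of build GRCm38.p6, from 250 bases before to 50 after each start, were found for 34 of the 45 listed genes. The core of the interferon-stimulated response element, searched as GAAANNGAAA on both strands, was in 15 of those 34, or 44.1%, against 3.99% of all 27025 genes with a promoter in the table. The gamma-activated site, searched as TTCNNNGAA, which reads alike on both strands, was in 10 of 34, or 29.4%, against 9.55% of all genes. The motifs can overlap each other. Among tested members, the 13 with a response element core had a median fold change of -0.98, all 13 negative, and the 16 with a promoter and no core had a median of -0.55, with Xaf1 and Oasl2 among them; that difference was not tested. Only 29 of the 38 tested members had a promoter. Those on neither side ran from Rtp4 at -2.45 to Parp14 at 0.12, with Ifi27l2a, Dhx58 and Zbp1 among them.

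The 6 members with the largest fold changes among those with a core upstream of the start are printed below over the 250 bases before the start, 5′ to 3′ on the gene's strand, to show where the element stands in genes that were dimmer in duct cells. Capitals mark every match to the core. The windows are chr5:120907526-120907775 on the minus strand for Oas1a, chr11:48871421-48871670 on the minus strand for Irgm1, chr11:58199306-58199555 on the plus strand for Igtp, chr8:71537473-71537722 on the minus strand for Bst2, chr3:142559794-142560043 on the plus strand for Gbp3 and chr19:34640639-34640888 on the plus strand for Ifit1.
Oas1a: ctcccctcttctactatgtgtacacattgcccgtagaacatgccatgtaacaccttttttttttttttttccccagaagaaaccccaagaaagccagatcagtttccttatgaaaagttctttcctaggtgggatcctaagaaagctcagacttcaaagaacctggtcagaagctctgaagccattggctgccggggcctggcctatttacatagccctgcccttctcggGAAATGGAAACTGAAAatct
Irgm1: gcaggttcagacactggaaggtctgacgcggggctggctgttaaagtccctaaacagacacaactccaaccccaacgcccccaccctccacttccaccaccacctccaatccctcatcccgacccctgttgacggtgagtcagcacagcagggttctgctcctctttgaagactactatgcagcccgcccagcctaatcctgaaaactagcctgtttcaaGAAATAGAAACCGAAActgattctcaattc
Igtp: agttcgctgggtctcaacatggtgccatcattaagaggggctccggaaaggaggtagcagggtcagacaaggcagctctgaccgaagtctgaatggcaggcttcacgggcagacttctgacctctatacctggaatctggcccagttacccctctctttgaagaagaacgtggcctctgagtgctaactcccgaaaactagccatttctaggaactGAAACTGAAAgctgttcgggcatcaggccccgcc
Bst2: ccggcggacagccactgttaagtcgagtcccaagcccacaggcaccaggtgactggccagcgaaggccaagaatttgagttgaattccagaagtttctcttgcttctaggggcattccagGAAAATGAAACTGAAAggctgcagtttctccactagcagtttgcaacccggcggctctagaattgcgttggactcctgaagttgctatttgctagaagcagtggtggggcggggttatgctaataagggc
Gbp3: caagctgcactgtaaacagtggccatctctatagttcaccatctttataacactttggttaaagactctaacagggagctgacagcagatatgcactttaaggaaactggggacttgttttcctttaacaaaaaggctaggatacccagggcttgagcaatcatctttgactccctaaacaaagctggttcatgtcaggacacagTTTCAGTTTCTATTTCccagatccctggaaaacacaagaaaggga
Ifit1: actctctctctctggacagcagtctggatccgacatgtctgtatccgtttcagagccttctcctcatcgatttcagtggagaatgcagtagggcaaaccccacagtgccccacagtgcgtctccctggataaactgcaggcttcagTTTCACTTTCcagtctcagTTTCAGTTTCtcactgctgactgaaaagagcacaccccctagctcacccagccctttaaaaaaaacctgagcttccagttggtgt

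In Oas1a, Irgm1, Bst2 and Gbp3 a pair of matches overlapped into 1 run of capitals, in Ifit1 a pair stood apart, and Igtp had 1. The match nearest the start ended 4 bases before it in Oas1a, 14 in Irgm1, 24 in Igtp, 29 in Gbp3, 75 in Ifit1 and 114 in Bst2, and in the Gbp3 and Ifit1 promoters the matches were on the opposite strand. In that order the fold changes were -1.52, -1.32, -1.31, -1.04, -0.91 and -1.14; the genes were picked by fold change. The promoter windows of Psmb9 and Tap1, which are transcribed away from each other, shared 275 bases and held neither motif, while the fold changes were -1.24 and -0.02.

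Genes that send or receive the interferon signal were nearer to the bulk of the array by their medians. Of 18 tested genes of interferon receptors and signalling outside the 45, 0 passed the test and the median was -0.14. At an unadjusted p under 0.05, 3 were lower and 0 higher, against 10.6% and 7.85% of all genes. The 3 were Socs3, Irf3 at -0.94 and Tyk2 at -0.69, all without overlap. Irf3 and Tyk2 were named after their values were seen. Ifnar1, a chain of the type I receptor, measured 469, 498 and 546 in duct and 551 and 549.7 in basal cells, at -0.12, a value chosen after it was seen. The largest fold changes were those of Socs3, a feedback inhibitor of JAK kinases, at 1704, 2526 and 2106 in duct against 5822 and 4581 in basal cells (-1.30, adjusted p = 0.107), and of the phosphatase gene Ptpn6 (-1.10, adjusted p = 0.483). Of 10 tested genes of interferon induction, which include Toll-like receptors and the interferon gene Ifna1, 0 passed the test or an unadjusted p of 0.05 and the median was -0.15. Their largest fold changes were -0.81 for Mavs, the mitochondrial adaptor of the RIG-I-like sensors (adjusted p = 0.297), and -0.52 for Tlr7.

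Interferon-stimulated genes outside the 45 went both ways. Of 26 tested, 19 were negative and 7 positive, with a median of -0.49, and 0 passed the test. Over all tested genes 58.5% were negative and the median was -0.13. At an unadjusted p under 0.05, 9 of the 26 were lower and 3 higher, against 10.6% and 7.85% of all genes. Ifi47, an interferon-induced GTPase, measured 98.0, 10.0 and 14.8 on the duct arrays and 386 and 403 on the basal arrays (-3.19, SE 0.67, adjusted p = 0.101). Only duct replicate 1 was above its brightest Bacillus probe set. Sp100, a nuclear body protein, measured 131, 209 and 189.8 in duct against 871 and 639.7 in basal cells (-2.01, SE 0.31, adjusted p = 0.0612). Cxcl10, a chemokine that draws T cells, went the other way, at 665, 1342 and 1205 in duct and 363 and 283 in basal cells (1.63, SE 0.38, adjusted p = 0.118), and every duct array lay above both basal arrays. So did those of Oasl1, at 132, 161 and 282 in duct and 53.3 and 55.9 in basal cells, where neither basal array was above its brightest Bacillus probe set. Cxcl10 and Oasl1 were picked once their values had been seen.

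The MHC class I pathway was measured with 13 genes outside the 45, of which 0 passed the test or an unadjusted p of 0.05; 5 were negative and 8 positive, with a median of 0.11. The largest fold changes were 0.55 for Psmb5, the constitutive proteasome subunit that Psmb8 replaces, and 0.55 for Tapbpl, a relative of tapasin. B2m, the light chain of class I molecules, chosen after its values were seen, was bright in both groups, at 8073 to 10384 in duct cells and 11186 and 12062 in basal cells (-0.33, adjusted p = 0.508).

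Markers of other cells moved with the groups in part. The summed intensity of 19 leukocyte marker genes was 16198 to 22387 on the duct arrays and 8647 and 20451 on the basal arrays, most of it from Lyz2, and 7 of the 19 were above the brightest Bacillus probe set on all arrays and 2, Coro1a and Nkg7, on none. Of the 10 tested, 2 were negative and 8 positive, with a median of 0.60, against -0.13 over all tested genes. None of the 10 passed the test, and the largest fold changes were 2.02 for Csf1r and -1.78 for Lcp1. Tg, the thyroglobulin gene and a thyroid marker, was called higher, at 8779, 16062 and 20119 on the duct arrays and 11.1 and 53.2 on the basal arrays; the next thyroid marker, Slc5a5, was at 1.30 and did not pass. Of the 7 basal markers Krt14 and Krt17 were called higher, at 3.78 and 1.80, while Ngfr, chosen after its values were seen, was at -1.76 without overlap and did not pass (adjusted p = 0.0845). Gland markers had 5 negative and 5 positive fold changes and a median of 0.02, the largest being 3.20 for Sox9 and 1.36 for Ltf. The largest were -1.43 for Bpifb1 and -0.55 for Scgb3a2 among club cell markers and -1.60 for Ccdc39 and -1.30 for Foxj1 among ciliated cell markers. Of stromal markers Col3a1 and Pdgfrb were above the brightest Bacillus probe set on 2 duct arrays and on 0 basal arrays, and Dcn and Col1a2, chosen after their values were seen, were at -0.64 and -0.62. None of these gland, club, ciliated or stromal markers passed the test. The part of these cells in the lower level of interferon-stimulated genes was not tested.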

How the data were processed

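RNA of 5 sorted samples was hybridised to an Affymetrix mouse expression array, per the labels. The deposited table holds 1 linear intensity per probe set and array, scaled by the authors to a common mean without the lowest and highest 2% of probe sets, as the values show; how probes were summarised and background corrected is not given in the sources used here. Of 45101 probe sets, 64 controls were left out, 34945 had 1 gene symbol in the platform annotation, 932 several and 9160 none listed. No column of another sample was present (0). All 43 member symbols matched the reference gene table by Entrez identifier.

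The probe set with the highest mean intensity stood for each of 18193 genes, and the lowest 40% of probe sets by that mean (97.2 or less) were left out, which left 12554 genes. log2(intensity + 16) was fitted in R 4.3.3 by limma 3.58.1 (lmFit, then eBayes), 2-sided, without covariates (3 residual and 2.60 prior degrees of freedom), and with each probe set as the unit. All adjusted p-values are limma's. The fit was also run on simulated data with independent noise. That check set a recovery limit only for changes larger than those of any member, so it does not bear on power for the members. Motifs were searched with Python 3.11.15 and figures drawn with matplotlib 3.10.9. No 2 arrays shared more than 1 identical value, and precision is limited by there being only 5 arrays.

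Members and lists were chosen with earlier results of these data known. Named with values are members past the test, the 3 largest fold changes in each role (for effectors, in each of 5 families) and the brightest member of each role, and the 2 largest of each other list. The array values of Tap1, Ifit3, Ifit2, Cmpk2, Rsad2, Krt5, Trp63 and Sox9, and the fold changes of further members, fall outside this rule and were chosen after their values were seen, as were the genes said to be so in the text. The effector families were IFIT, MX and OAS genes; the ISG15 system; GTPases; PARP genes with Dtx3l; and the rest. Alternatives were quantile normalization, median centring, a pseudocount of 1 or 64, a filter at 60% or none, an intensity trend with robust fit, a block for replicate number, omission of each array in turn, averaging over the probe sets of a gene, leaving out probe sets with a shared-sequence suffix in their name and, added after seeing the data, the mean of log2 values for choice and filter.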

Additional observations from a re-analysis of the deposited data

How the results depend on the processing

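The median fold change of the interferon-stimulated genes was negative under all 16 alternatives, while the count called over all genes was not stable. The median was -0.84 in the fit reported, -0.74 with quantile normalization, -0.64 with median centring, -0.90 and -0.72 with pseudocounts of 1 and 64, -0.79 with no filter, -0.96 without probe sets of a shared-sequence suffix, -0.89 with the replicate block and -0.89 to -0.85 with 1 array left out. The median of all genes was -0.05 with quantile normalization and 0.08 with median centring, so that the members differed from it by -0.69 and -0.72, as against -0.72 in the fit reported. Members called lower with limma, 1 in the fit reported, numbered 2 with quantile normalization, with median centring and with the mean of log2 values, 3 with a pseudocount of 64, 6 with the filter at 60%, 9 with the intensity trend, and 0 with no filter, with the mean of probe sets, with the replicate block and without any single array. At an unadjusted p under 0.05 the settings with 0 had 18, 20, 15 and 9 to 20 members lower, and median centring had 12; the 9 were found without basal replicate 1. Members negative numbered 32 to 37 with 1 array left out, and 0 were called higher under any setting. Rtp4 was called with quantile normalization (adjusted p = 0.0444), median centring (0.0144), a pseudocount of 64 (0.0262), the filter at 60% (0.0211), the intensity trend (0.00297) and the mean of log2 values (0.0488).

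Over all genes, 103 were called higher and 15 lower; these counts were 250 and 46 with median centring, 66 and 8 with a pseudocount of 1, 192 and 81 with 64, 36 and 1 with no filter, 254 and 149 with the filter at 60%, 582 and 394 with the intensity trend, 0 and 0 with the replicate block (7.27% lower at an unadjusted p under 0.05), and 0 to 39 and 0 to 1 with 1 array left out (none without either basal array, where 6.05% and 6.98% were lower at an unadjusted p under 0.05); 28 were lower with the mean of probe sets. By probe set, 53 were higher and 2 lower, against 267 and 43 with median centring, 138 and 25 with a pseudocount of 64, 27 and 0 with no filter, 223 and 72 with the filter at 60%, 826 and 456 with the intensity trend, 0 and 0 with the replicate block, 0 to 9 and 0 with 1 array left out, and 1 lower with a pseudocount of 1. Member probe sets called, 0 in the fit reported, were 2 with median centring, with a pseudocount of 64 and with the filter at 60%, and 7 with the intensity trend.

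The samples came from separate pools, so replicate numbers do not pair them by pool. Deviations of same-numbered arrays from their group means correlated at -0.08 and -0.04. The deviations of the 2 basal arrays mirror each other, so both correlations rest on the same basal difference. Whether same-numbered samples shared a preparation was not tested. Of the 16 alternatives, the replicate block and the omission of duct replicate 3 gave the same fold changes, as no basal array has that number. They are not separate checks, and the block leaves fewer residual degrees of freedom than the fit reported. With the replicate block Xaf1 was at -2.46 (adjusted p = 0.328). Of the 38 tested members 27 kept their sign under each alternative that tested them and 11, with fold changes from -0.62 to 0.12, did not (32 members were tested with the filter at 60%, 28 without probe sets of a shared-sequence suffix and 37 with the mean of log2 values); the cause was not tested. With quantile normalization Irf7 was at 0.15, Irf9 at 0.023, Stat2 at 0.13 and Tap1 at 0.10; with median centring Ifitm3 was at 0.12, Irf7 at 0.19, Irf9 at 0.032, Stat2 at 0.10 and Tap1 at 0.19. With the replicate block Irf7 was at 0.0015, Parp14 at -0.29 and Psmb10 at -0.23. Parp14 was at -0.41 with the mean of probe sets and -0.93 with the mean of log2 values. With 1 array left out, Irf7 ranged from -0.45 to 0.41, Irf9 from -0.34 to 0.00014, Stat2 from -0.63 to 0.43, Tap1 from -0.14 to 0.14, Psmb8 from -1.07 to 0.49, Psmb10 from -0.30 to 0.36, Parp14 from -0.29 to 0.63, Ifit3 from -1.44 to 0.20, Ube2l6 from -0.83 to 0.24 and Dtx3l from -0.89 to 0.0075. Where 1 basal array remained, it was assumed to vary like the duct arrays.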
